A study of Mus musculus with 8 samples.

Results

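Glycolysis is the cytosolic pathway that splits glucose to pyruvate, and here it was followed through the 31 genes listed for it, from the glucose transporters to lactate export and the entry of pyruvate into mitochondria. The genes are a fixed list of symbols, taken for their place in the pathway with no threshold on measured values, but drawn up with earlier results of these data known. All 31 were matched among the 53465 gene IDs counted, and all 31 were abundant enough to be tested, among 14443 genes tested in all.

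RNA was sequenced from regulatory T cells (Tregs), the Foxp3-expressing T cells that restrain immune responses, made in culture from wild-type C57BL/6 mice. CD4+ T cells were selected from spleen and lymph nodes and were activated on plates with anti-CD3 and with anti-CD28, IL-2 and TGF-β, while antibodies blocked IFN-γ, IL-12 and IL-4. At 72 h each was divided and kept without drug (control, 4 libraries) or with 50 µM BMS309403, an inhibitor of fatty acid-binding proteins aimed here at FABP5 (treated, 4 libraries). The labels name no vehicle, no duration of exposure, no age of the mice and no sort for Foxp3, and they do not say whether the replicates came from separate mice. P-values therefore measure the spread between these libraries, which may be technical.

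As background, glucose enters through facilitative transporters of the Slc2a family and is trapped by hexokinase. Phosphofructokinase commits it to breakdown, and the lower part of the pathway from aldolase to pyruvate kinase returns ATP. Pyruvate is then reduced to lactate by lactate dehydrogenase and exported, or carried into mitochondria. Activated T cells are known for a strong rise of this pathway, which is driven by the transcription factors Myc and HIF-1, whereas Tregs are known to rely on fatty acid and mitochondrial oxidation as well.

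Total counts lay between 32.9 and 44.6 M reads per library. Levels are given as CPM, a gene's count relative to the size of its library, scaled by TMM factors between 0.981 and 1.02. Levels of different genes are compared as CPM per kilobase of annotated exon. That length joins the exons of all annotated transcripts and can exceed the RNA made. It was 5379 bases for Eno1 and 1739 for Eno3, and 13401 for Pfkp and 3340 for Pfkm. Shares between isoenzymes and classes by level per kilobase therefore depend on the annotation. The T cell and Treg markers Cd3e, Cd3g, Cd4, Foxp3, Il2ra, Ctla4 and Ikzf2 together stood at 4824 to 5400.5 CPM in the controls and at 5875 to 6264 CPM with drug, mostly from Il2ra. Within the list Foxp3 (950.0 to 1247 CPM), Il2ra and Ikzf2 rose, Cd3e fell 1.38-fold (edgeR adjusted p = 2.54e-05) and Cd3g also fell, and Cd4 and Ctla4 did not pass. Markers of other cells were low in both groups. The 2 CD8 T cell markers summed to 9.89 to 14.3 CPM without and 10.2 to 14.9 CPM with drug. The 4 B cell markers summed to 5.26 to 7.76 CPM without and 4.42 to 6.62 CPM with drug, and the 4 myeloid markers to 1.32 to 2.74 and 0.719 to 2.92 CPM. The NK cell receptors Ncr1 and Klra8 had 0 counts in all 8 libraries. The 3 stromal markers summed to 113 to 122 CPM without and 96.4 to 103.5 CPM with drug, nearly all of it Pecam1, which T cells also express. The part of other cells in the results was not tested.

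Most genes of the pathway were lower in treated cells. Of the 31 genes, 24 were lower and 2 were higher at an adjusted p under 0.05, while 18.1% of all tested genes were called lower and 18.7% higher. The median log2 fold change was -0.32 over the 31 genes and 0.01 over all tested genes. Each adjusted p of a gene in this text comes from edgeR's quasi-likelihood test with Benjamini-Hochberg adjustment over all 14443 genes. In 21 genes all 4 treated libraries lay below all 4 control libraries, and in 2 they lay above, against 16.1% and 17.7% of all tested genes. Most falls were modest: 19 of the 24 lay between 0.25 and 0.65 on the log2 scale. In bulk RNA, fewer cells with a high level and less RNA per cell cannot be told apart.

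**Figure D1:**
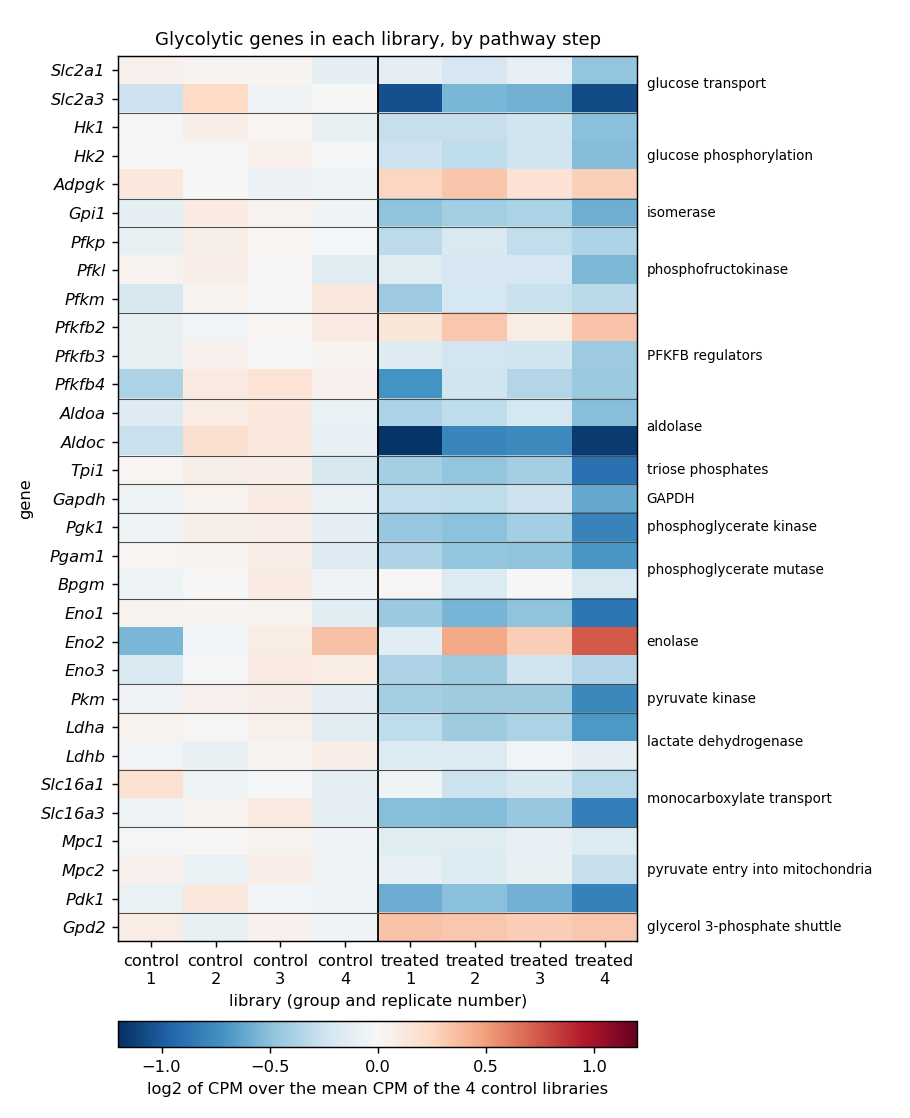
Each cell is the log2 of a gene's CPM in a library over its mean in the 4 control libraries, with genes in pathway order and libraries by group and replicate number. Blue fills most of the treated columns, darkest in treated replicate 4, while Adpgk and Gpd2 are red in all 4 treated libraries.

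Together the 31 genes took 2.18% to 2.43% of all counts in the controls and 1.5% to 1.83% with drug. On the CPM scale their sum was 22811, 24244, 24507 and 21784 in control replicates 1 to 4 and 18084, 17837, 18357 and 14705 in treated replicates 1 to 4. The groups did not overlap, and the treated mean was 26.1% below the control mean. Treated replicate 4 was the lowest treated library for 22 of the 31 genes and for 20 of the 24 genes called lower. Without it the test called 21 genes lower and 2 higher, and their median was -0.28 on the log2 scale.

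**Figure D2:**
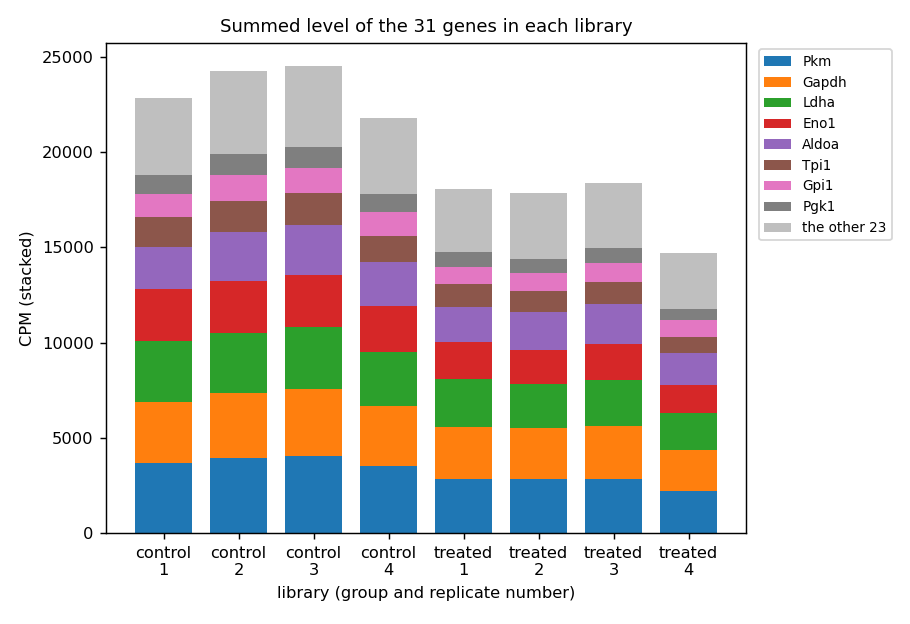
Stacked bars give the CPM of the 8 most abundant genes and of the other 23 in each library, so that a bar's height is the summed level of the 31 genes. The control bars reach 21784 to 24507 CPM and the treated bars 14705 to 18357 CPM.

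Sharing of reads with copies of these genes was looked for, since glycolytic genes have many processed pseudogenes. At 95% identity over at least 300 bases of transcript, 72 other annotated genes matched Gapdh, 3 matched Eno1, 2 matched Pgk1 and 1 each matched Tpi1, Pgam1, Pkm and Ldhb. The copies of Gapdh held 0.866% of the counts of Gapdh and its copies, and those of Pgam1 0.575%, Eno1 0.272%, Ldhb 0.255% and Pkm 0.237%. Since it is not known how reads with several matches were counted, reads dropped for matching a copy cannot be seen in these shares. Aldoa is the name of 2 IDs, and the ID that covers the RefSeq gene was used. The other ID, upstream of it, had 27 to 58 counts in control and 47 to 73 in treated libraries.

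Both glucose transporter genes fell, Slc2a3 by 1.73-fold and Slc2a1 by 1.16-fold. Slc2a3 (ENSMUSG00000003153, chromosome 6, 122727809 to 122801640, minus strand, GRCm38) encodes GLUT3, a high-affinity glucose transporter. Its values were 208, 291, 238 and 247 CPM in control replicates 1 to 4 and at 118, 168, 165 and 117 CPM in treated replicates 1 to 4. Every treated library was below every control library, and replicate 1 was low in both groups. The log2 fold change was -0.79 (SE 0.13, edgeR adjusted p = 0.000611), a 1.73-fold fall.

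Slc2a1, which encodes GLUT1, the main glucose transporter of activated T cells, went from 343 ± 18.2 to 296 ± 33.5 CPM (SD, n = 4). This is -0.21 on the log2 scale (SE 0.07, edgeR adjusted p = 0.0421), and the groups overlapped, treated replicates 1 and 3 at 318 and 320.0 CPM against control replicate 4 at 316 CPM. The call was lost without control replicate 1 (adjusted p = 0.0603), control replicate 2 (0.0972), control replicate 3 (0.100), treated replicate 2 (0.0837) or treated replicate 4 (0.0787). With the replicate block the adjusted p of Slc2a1 was 0.000116. Per kilobase of exon, Slc2a1 made up 74.3% ± 2.94 (SD, n = 4) of the summed level of these transporters in the controls and 81.2% ± 2.66 with drug.

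Glucose is trapped by phosphorylation. Both hexokinases, Hk1 (housekeeping form) and Hk2 (inducible form), fell 1.25-fold, Hk1 from 393 ± 19.0 to 315 ± 25.4 CPM (edgeR adjusted p = 0.00149) and Hk2 from 138 ± 4.12 to 110.3 ± 9.81 CPM (adjusted p = 0.00125; SD, n = 4). The share of Hk1 per kilobase stood at 66.5% ± 1.09 in control and 66.6% ± 0.388 in treated libraries. Adpgk, which encodes a kinase that phosphorylates glucose with ADP in place of ATP, went the other way. Control replicates 1 to 4 had 229, 209.6, 201 and 202 CPM and treated replicates 1 to 4 had 252, 266, 237 and 257 CPM, with no overlap. Adpgk rose by 0.27 on the log2 scale (SE 0.05, edgeR adjusted p = 0.00192). Gpi1, the isomerase that follows, fell from 1295 ± 80.5 to 938 ± 57.6 CPM (SD, n = 4), a 1.38-fold change (adjusted p = 7.84e-05).

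The 3 phosphofructokinase genes fell to a like degree. Pfkp (platelet type), Pfkl (liver type) and Pfkm (muscle type) encode isoforms of the enzyme at the committed step, and their log2 fold changes were -0.29 (SE 0.05), -0.27 (SE 0.08) and -0.31 (SE 0.07). The edgeR adjusted p was 0.00119 for Pfkp, 0.0227 for Pfkl and 0.00624 for Pfkm. Pfkl was not called when control replicate 2 (adjusted p = 0.0682) or 3 (0.0564) was left out. Pfkp made up 50.5% of their summed level per kilobase in control and 50.3% in treated libraries, Pfkl 40.6% and 40.9%, and Pfkm 8.95% and 8.80%.

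PFKFB enzymes set the level of fructose 2,6-bisphosphate, the activator of phosphofructokinase. Of the 3 PFKFB genes on the list, 2 fell. Pfkfb3, which mostly makes the activator and held 88.3% of the summed level of these 3 genes per kilobase in control, was at 138 ± 5.96 CPM (SD, n = 4) and fell 1.2-fold to 115 ± 9.25 CPM (edgeR adjusted p = 0.0041). Pfkfb4 fell from 8.94 ± 1.41 to 6.64 ± 0.899 CPM (adjusted p = 0.0211), with overlap of the groups. Leaving out control replicate 2 (adjusted p = 0.0642) or 3 (0.0690) ended the call. Pfkfb2, the heart type, stood at 4.35 ± 0.235 CPM without and 5.10 ± 0.445 CPM with drug. The difference of 0.23 on the log2 scale had a 95% interval from 0.02 to 0.44 and did not pass (adjusted p = 0.0814). With the replicate number as a block it passed (adjusted p = 0.0336). Pfkfb1, a family member outside the list and the shares, stood at 6.43 ± 0.381 and 6.47 ± 0.229 CPM (SD, n = 4; adjusted p = 0.925). Of the exon bases of Pfkfb2, 19.5% are shared with Gm29427 or the antisense Yod1, so its reads are less certain. The same holds for Gpi1, with 11.5% of exon bases shared, and for Pfkm, with 10.7%.

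Aldolase splits fructose 1,6-bisphosphate, and both aldolase genes fell. Aldoc (ENSMUSG00000017390, chromosome 11, 78322968 to 78327781, plus strand) had the largest fall of the 31 genes, 1.94-fold. Control replicates 1 to 4 had 93.6, 129, 123 and 105 CPM, and treated replicates 1 to 4 had 49.8, 65.5, 66.5 and 51.0 CPM. The groups stood well apart, and replicates 1 and 4 were the lower ones in both. On the log2 scale the change was -0.95 (SE 0.12, edgeR adjusted p = 6.04e-05). Aldoa, the muscle-type and most widely expressed aldolase, was at 2402 ± 219.6 CPM (SD, n = 4) and fell 1.27-fold to 1888 ± 167 CPM (adjusted p = 0.004). The share of Aldoc in the aldolase level per kilobase went from 4.0% ± 0.241 to 2.67% ± 0.238.

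Most genes of the lower pathway fell together. Tpi1, the triosephosphate isomerase, fell 1.45-fold from 1561 ± 133 to 1079 ± 162 CPM (edgeR adjusted p = 0.00156). Gapdh, which oxidizes glyceraldehyde 3-phosphate and is often taken as a constant reference gene, fell 1.28-fold, from 3167, 3404, 3533 and 3133 CPM in control to 2702, 2677, 2793 and 2159 CPM in treated replicates 1 to 4. No treated library reached the lowest control value, and the adjusted p of Gapdh was 0.00364. Pgk1, phosphoglycerate kinase, where the pathway first forms ATP, fell 1.45-fold from 1033 ± 66.3 to 714 ± 82.8 CPM (adjusted p = 0.00029). Pgam1, phosphoglycerate mutase, fell 1.41-fold from 181 ± 12.7 to 128 ± 12.1 CPM (adjusted p = 0.000191; SD, n = 4 throughout). Bpgm, a related mutase that makes 2,3-bisphosphoglycerate, stood at 15.2 ± 0.718 and 14.4 ± 1.02 CPM and did not pass (-0.08 on the log2 scale, 95% interval from -0.23 to 0.07, adjusted p = 0.37).

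Of the enolase genes, Eno1 and Eno3 fell and Eno2 did not pass. Eno1 (ENSMUSG00000063524, chromosome 4, 150236721 to 150248879, plus strand), the ubiquitous enolase, had 2746, 2730.4, 2749 and 2441 CPM in control replicates 1 to 4 and 1957, 1808, 1903 and 1465 CPM in the treated ones. Replicate 4 was the lowest of its group on both sides, and the groups were far apart. Eno1 fell 1.5-fold (log2 fold change -0.58, SE 0.08, edgeR adjusted p = 0.000204). Eno3, the muscle enolase, was at 185 ± 16.1 CPM (SD, n = 4) and fell 1.27-fold to 146 ± 8.17 CPM (adjusted p = 0.00126). Eno2, the neuronal enolase, had 4.31, 6.16, 6.69 and 8.03 CPM in control replicates 1 to 4 and 5.75, 8.61, 7.73 and 10.5 CPM in the treated ones. It was higher in treated cells for each replicate number, but the groups overlapped. The difference of 0.37 on the log2 scale had a 95% interval from -0.06 to 0.79 and did not pass (adjusted p = 0.159). It passed with the replicate block (adjusted p = 0.000559) and without treated replicate 1 (0.0441). Per kilobase, Eno1 made up 82.1% of the enolase level in control and 79.3% in treated libraries, Eno3 17.7% and 20.2%, and Eno2 0.223% and 0.426%.

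Pkm (ENSMUSG00000032294, chromosome 9, 59656368 to 59679375, plus strand) encodes the pyruvate kinase of most tissues and carried the most counts of the 31 genes. Its control replicates 1 to 4 had 3708, 3952, 4031 and 3536 CPM, and its treated replicates 1 to 4 had 2866, 2840.0, 2837 and 2224 CPM. Treated replicate 4 was far below the other treated libraries, which were close together. Pkm fell 1.41-fold (log2 fold change -0.50, SE 0.08, edgeR adjusted p = 0.000505). Of its exon bases 15.3% are shared with Gm49759 on the same strand, and gene counts do not separate its splice forms M1 and M2.

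RNA of the genes for lactate formation and export, apart from Ldhb, fell as well. Ldha (ENSMUSG00000063229, chromosome 7, 46841475 to 46855627, plus strand), the lactate dehydrogenase subunit that favours lactate formation, had 3211, 3141, 3247 and 2838 CPM in control replicates 1 to 4 and 2513, 2306, 2391 and 1928 CPM in the treated ones. All treated libraries were below the control range, and replicate 4 was lowest in both groups. Ldha fell 1.36-fold (log2 fold change -0.44, SE 0.08, edgeR adjusted p = 0.00088). Ldhb, the heart-type subunit, stood at 9.13 ± 0.474 and 8.42 ± 0.375 CPM (SD, n = 4) and did not pass (-0.12 on the log2 scale, 95% interval from -0.28 to 0.04, adjusted p = 0.231). Per kilobase, Ldha was 99.4% of the level of both subunits in control and 99.2% in treated libraries.

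Slc16a3 (ENSMUSG00000025161, chromosome 11, 120948480 to 120960868, plus strand) encodes MCT4, a lactate exporter of highly glycolytic cells. Control replicates 1 to 4 had 506, 545, 568 and 491 CPM and treated replicates 1 to 4 had 371, 368, 385 and 298 CPM, so that even the highest treated library was below the control range. The fall was 1.48-fold (log2 fold change -0.57, SE 0.08, edgeR adjusted p = 0.000134). Slc16a1, which encodes the widely expressed transporter MCT1, went from 102 ± 9.21 to 87.9 ± 7.61 CPM (SD, n = 4), with overlap (adjusted p = 0.039). It stayed called only without control replicate 4 or treated replicate 1. The other adjusted p-values were 0.0690 without control replicate 1, 0.0535 without control replicate 2, 0.0713 without control replicate 3, 0.101 without treated replicate 2, 0.0695 without treated replicate 3 and 0.114 without treated replicate 4. Slc16a1 was lower in treated cells for each of the 4 replicate numbers, and with the replicate block its adjusted p was 3.07e-05. The share of Slc16a1 per kilobase of both exporters went from 18.8% ± 1.84 to 23% ± 1.48.

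At the entry to mitochondria, Pdk1 fell 1.53-fold and Mpc1 fell 1.1-fold. Pdk1 (ENSMUSG00000006494, chromosome 2, 71873224 to 71903858, plus strand) encodes a kinase that switches off pyruvate dehydrogenase and so keeps pyruvate from oxidation. Control replicates 1 to 4 had 261, 304, 271 and 269 CPM and treated replicates 1 to 4 had 183, 195, 185 and 157 CPM, with a wide gap between the groups. The fall was 1.53-fold (log2 fold change -0.62, SE 0.07, edgeR adjusted p = 2.87e-05). The mitochondrial pyruvate carrier is built of the products of Mpc1 and Mpc2. Mpc1 was at 46.4 ± 1.18 CPM (SD, n = 4) and fell 1.1-fold to 42.1 ± 0.900 CPM (adjusted p = 0.0217). That call was lost without a filter on low counts (adjusted p = 0.0939), and on leaving out control replicate 2 (0.0616) or 3 (0.0705), treated replicate 2 (0.0608) or treated replicate 4 (0.0649). Of its exon bases 23.1% are shared with an antisense gene, 4930506C21Rik. Mpc2 stood at 23.7 ± 1.33 and 21.3 ± 1.22 CPM. The groups did not overlap, but the difference of -0.15 on the log2 scale (95% interval from -0.29 to -0.02) did not pass (adjusted p = 0.0684). It passed with the replicate block (adjusted p = 0.00916).

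Gpd2, the mitochondrial glycerol 3-phosphate dehydrogenase, passes electrons of cytosolic NADH to the respiratory chain. Control replicates 1 to 4 had 32.6, 28.8, 31.8 and 29.7 CPM and treated replicates 1 to 4 had 39.0, 38.5, 37.8 and 38.6 CPM. The treated libraries were close together and all above control. Gpd2 rose 1.25-fold (log2 fold change 0.32, SE 0.05, edgeR adjusted p = 0.000381). Adpgk and Gpd2 were thus the 2 members that rose, and both stayed called with any 1 of the 8 libraries left out, as did 19 of the 24 that fell.

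**Figure D3:**
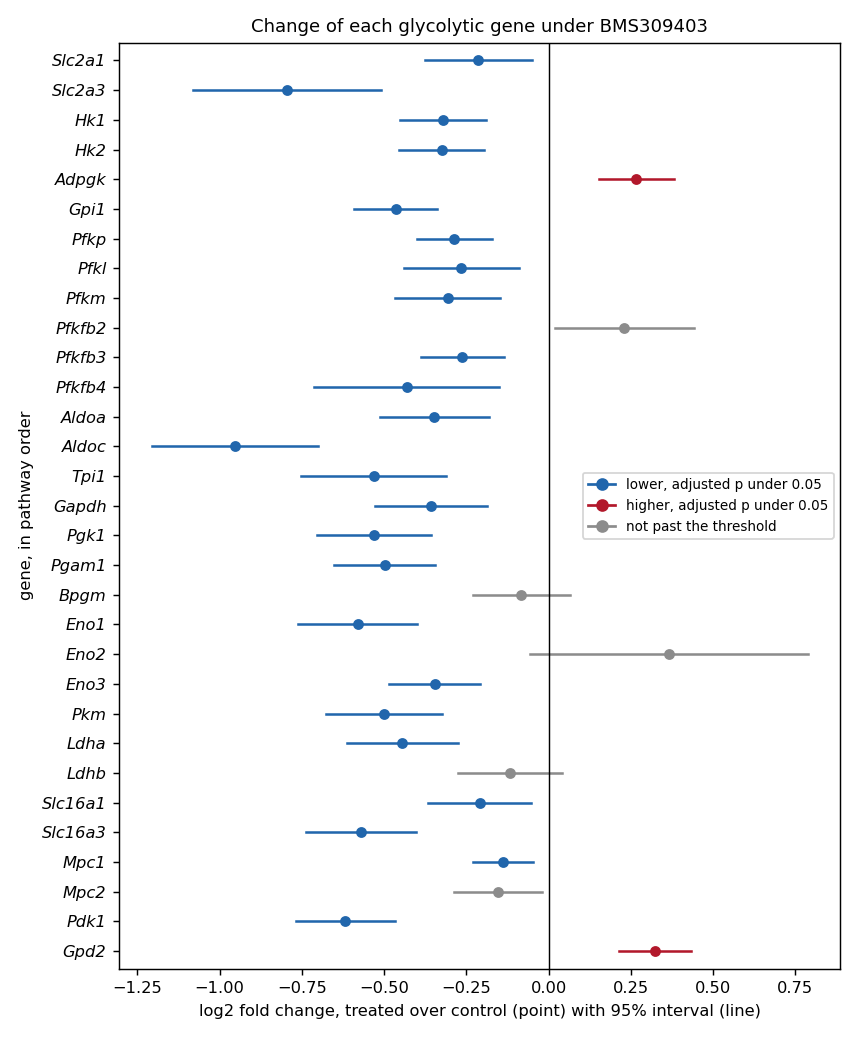
Points are log2 fold changes of treated over control from the edgeR fit of 4 against 4 libraries and lines are 95% intervals, in pathway order. Most intervals lie below 0, with Aldoc and Slc2a3 farthest left. The points of Eno2, Gpd2, Adpgk and Pfkfb2 lie on the right, and the intervals of Eno2, Bpgm and Ldhb cross 0.

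Unequal change of isoenzymes was tested on the log2 ratio of their CPM in each library, for 16 pairs. A two-sided exact permutation test over 70 arrangements was used. Isoenzymes here include transporters of a step, the carrier subunits Mpc1 and Mpc2, and Pgam1 with the related mutase Bpgm, which makes another product. The smallest p this design allows is 0.0286. That exact permutation p was reached by 6 pairs, whose ratios did not overlap between the groups. After Benjamini-Hochberg adjustment over the 16 pairs their exact permutation p was 0.0762, so that 0 pairs passed. With 16 pairs and this smallest p, a fully separated pair could not pass on its own. That 0 pairs passed therefore does not show that isoenzymes changed equally. Without adjustment 6 pairs were under 0.05. Aldoa over Aldoc moved by 0.61 (95% interval 0.41 to 0.81), Slc2a1 over Slc2a3 by 0.59 (0.17 to 1.0) and Slc16a1 over Slc16a3 by 0.37 (0.11 to 0.62), on the log2 scale. Pgam1 over Bpgm moved by -0.42 (-0.57 to -0.26). The ratio of Pfkfb2 to Pfkfb3 moved by 0.49 (0.21 to 0.77) and that of Pfkfb2 to Pfkfb4 by 0.65 (0.31 to 1.0).

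For Ldha over Ldhb the ratio moved by -0.33 (95% interval -0.62 to -0.05, exact permutation p = 0.0571, adjusted 0.102) and for Eno1 over Eno2 by -0.96 (-1.81 to -0.11, exact p = 0.0571, adjusted 0.102). The narrowest intervals around 0 were those of Hk1 over Hk2 (0.01, from -0.09 to 0.10) and of Mpc1 over Mpc2 (0.02, from -0.10 to 0.13). Pfkp over Pfkm had 0.02 (-0.15 to 0.18) and Pfkp over Pfkl -0.02 (-0.24 to 0.21). The point estimates went both ways: the lesser form had the larger fall among aldolases and glucose transporters, and the leading form among lactate exporters.

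**Figure D4:**
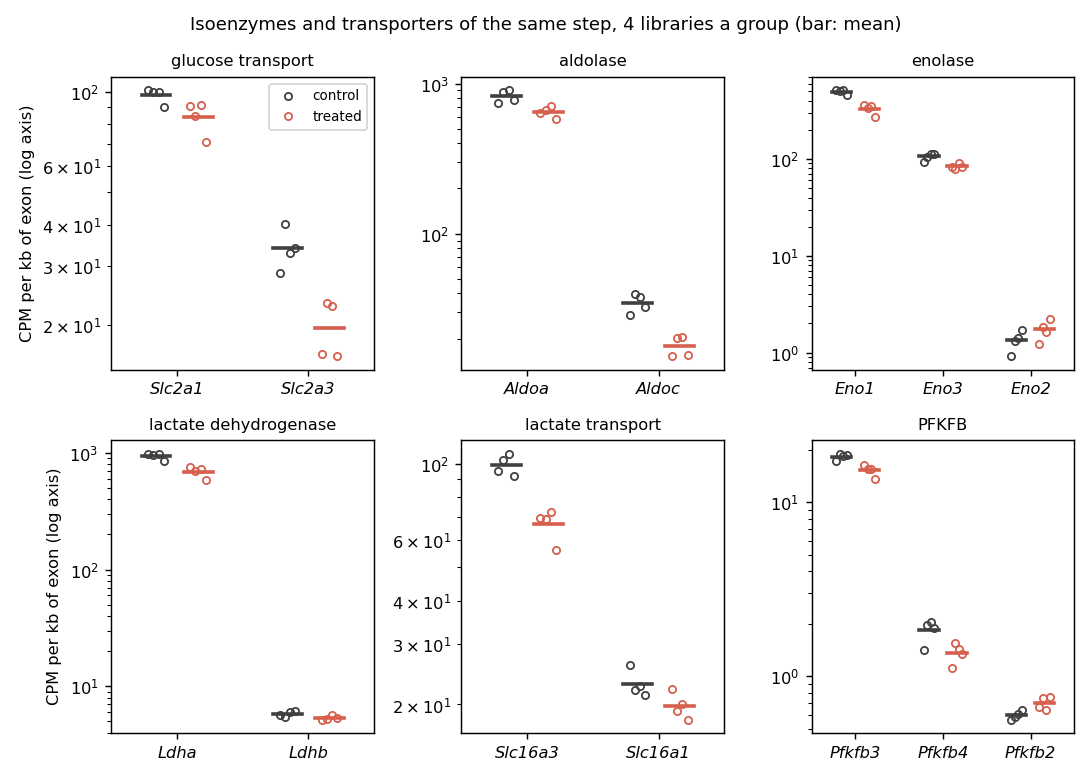
Open circles are single libraries and bars are group means of CPM per kilobase of exon, on log axes, for 6 sets of genes that act at the same step. The gap between control and treated is wider for Slc2a3 than Slc2a1 and for Aldoc than Aldoa, and Eno2 and Pfkfb2 lie slightly higher in treated cells.

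The calls were read by the level in control. The 9 genes at 100 CPM per kilobase or more, Ldha, Aldoa, Gapdh, Pkm, Tpi1, Eno1, Pgk1, Gpi1 and Eno3, were all called lower, with log2 fold changes between -0.58 and -0.35. Of the 15 genes between 10 and 100 CPM per kilobase, 14 were lower, and of the 7 genes under 10 only Pfkfb4 was. By CPM, 21 of the 22 members at 100 or more in control were lower, where 30.4% of all 2558 tested genes at that level were. At 1000 CPM or more 8 of 8 members were lower, where 32.5% of all 80 genes were, and 18 of the other 72.

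**Figure D5:**
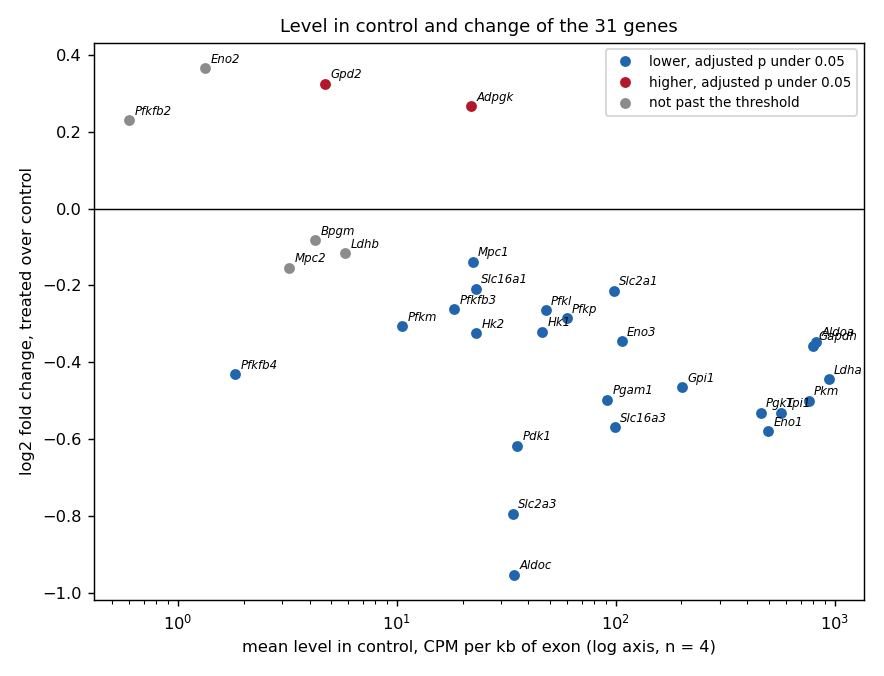
Each point is a gene, placed by its mean CPM per kilobase of exon in the 4 control libraries (log axis) and its log2 fold change. The genes at 100 or more form a band between -0.58 and -0.35, and the genes not called are at the low end.

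Promoter sequence is shown to describe the members, and its part in their falls was not tested. RefSeq (GRCm38.p6) listed 47 promoters for 30 of the 31 genes, and the 250 bases before each start were searched on both strands for ACGTG and GCGTG, the core letters that HIF-1 binds. The palindrome CACGTG, an E-box letter pattern that Myc and other factors bind, holds ACGTG on both strands and counts there as 2 matches. Printed 5′ to 3′ with these letters and their complements in capitals are windows that overlap no annotated exon, for Ldha (chr7:46845554-46845803, plus strand), its isoenzyme Ldhb (chr6:142507958-142508207, minus strand), Pgk1 (chrX:106186850-106187099, plus strand), Hk2 (chr6:82774455-82774704, minus strand) and Pdk1 (chr2:71872974-71873223, plus strand).
Ldha: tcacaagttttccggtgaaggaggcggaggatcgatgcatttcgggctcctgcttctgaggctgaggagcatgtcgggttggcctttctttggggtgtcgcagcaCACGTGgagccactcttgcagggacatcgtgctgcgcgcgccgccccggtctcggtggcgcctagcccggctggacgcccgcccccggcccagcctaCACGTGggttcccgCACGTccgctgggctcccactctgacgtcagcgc
Ldhb: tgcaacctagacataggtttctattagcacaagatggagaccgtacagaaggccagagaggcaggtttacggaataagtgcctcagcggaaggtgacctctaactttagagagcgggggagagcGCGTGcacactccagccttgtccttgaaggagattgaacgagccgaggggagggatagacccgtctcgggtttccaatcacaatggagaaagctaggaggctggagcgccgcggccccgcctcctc
Pgk1: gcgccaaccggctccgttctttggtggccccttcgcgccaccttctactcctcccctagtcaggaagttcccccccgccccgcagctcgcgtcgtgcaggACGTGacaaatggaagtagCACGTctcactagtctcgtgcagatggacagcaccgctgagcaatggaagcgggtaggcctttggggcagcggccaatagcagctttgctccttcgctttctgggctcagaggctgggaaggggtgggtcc
Hk2: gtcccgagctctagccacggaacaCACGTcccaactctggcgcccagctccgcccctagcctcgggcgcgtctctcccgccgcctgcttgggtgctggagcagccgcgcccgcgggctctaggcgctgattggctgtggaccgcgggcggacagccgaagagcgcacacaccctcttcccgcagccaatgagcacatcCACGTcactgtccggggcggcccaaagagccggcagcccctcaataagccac
Pdk1: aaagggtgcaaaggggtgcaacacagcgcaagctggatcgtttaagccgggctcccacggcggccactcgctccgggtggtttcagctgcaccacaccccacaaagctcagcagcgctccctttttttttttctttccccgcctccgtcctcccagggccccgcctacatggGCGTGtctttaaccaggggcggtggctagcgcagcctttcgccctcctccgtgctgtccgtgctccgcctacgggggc

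The window of Ldha held 5 matches to ACGTG, counting both strands, in the form of 2 palindromes and 1 further match, and that of Ldhb held 0, with 1 match to GCGTG. A second window of Ldha (chr7:46846832-46847081, plus strand) also held 0 matches to ACGTG and 1 to GCGTG, so that the contrast with Ldhb holds for the printed window alone. For this second window, the bases just after the listed start do occur in a GENCODE transcript of Ldha. Pgk1 and Hk2 held 2 matches to ACGTG each, and Pdk1 a single match to GCGTG. The 5 printed windows were picked from 19 that overlap no annotated exon, and each holds a match. Among those not printed, a window each of Hk1, Pfkm and Mpc1, all called lower, held 0 matches to ACGTG or GCGTG. Windows of Pfkfb2, which was not called, and of Slc16a1, called lower, held 2 matches to ACGTG and 2 to GCGTG. Over all members, 14 of 30 genes (46.7%) had ACGTG in at least 1 window, against 18.5% of all RefSeq genes and 25.2% of the tested genes. Members had 47 windows for 30 genes and the tested genes 12908 windows for 10127 genes. Among windows of at least 60% GC the letters were in 15 of 25 windows of members, some of which overlap, and in 24.2% of 6376 windows of tested genes. Counted by gene over these windows, they were in 13 of 20 members and in 25.8% of 5575 tested genes. For GCGTG the shares of genes were 66.7% of members, 30.9% of all and 50.0% of tested genes. Among windows of at least 60% GC, however, GCGTG was in 56.0% of those of members and 57.4% of those of tested genes. Within the members, ACGTG was in 11 of 23 genes called lower, in both genes called higher and in 1 of the 5 not called. The largest fall, Aldoc, had GCGTG alone. These are matches of letters, not sites shown to be bound. For 8 of the 47 windows, that of Ldha shown here among them, the bases just after the listed start were not found in a GENCODE transcript of the gene. A match could lie inside a transcript, so it does not show that a window ends at a transcript start.

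Genes around the pathway were read from lists of related enzymes and regulators, against 18.1% of all tested genes called lower and 18.7% higher. Of the 2558 tested genes at 100 CPM or more in control, 30.4% were called lower and 18.8% higher. Of 27 other isoenzymes and sugar or lactate transporters, 11 were tested, with 3 lower and 2 higher. Bsg, the chaperone that brings MCT1 and MCT4 to the membrane, was at 354 ± 31.4 CPM (SD, n = 4) and fell 1.35-fold to 263 ± 24.1 CPM (edgeR adjusted p = 0.000941). Slc2a6, a lysosomal sugar transporter, rose 1.5-fold from 53.6 ± 1.61 to 80.5 ± 5.07 CPM (adjusted p = 3.64e-06), and Tigar, which lowers fructose 2,6-bisphosphate, rose 1.31-fold (adjusted p = 0.00187). Pgam2 and the testis genes Pgk2 and Ldhc, isoenzymes of other tissues, had 0 counts in all libraries.

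In the pyruvate dehydrogenase complex and its regulators, 3 of 10 tested genes were lower and 1 higher, and the median was -0.00 on the log2 scale. Only Pdha1 of them was at 100 CPM or more in control, and 18.1% of all tested genes were called lower. The phosphatase gene Pdp2 fell 1.32-fold, the kinase gene Pdk3 fell 1.23-fold and the catalytic subunit gene Pdha1 fell 1.12-fold, while the phosphatase gene Pdp1 rose 1.13-fold. Of the genes that shuttle cytosolic NADH, 5 of 8 were lower and 1 higher, with a median of -0.17. Mdh1, cytosolic malate dehydrogenase, fell 1.27-fold (edgeR adjusted p = 5.87e-05), and Mdh2 fell 1.18-fold. In glycogen metabolism and gluconeogenesis, 7 of 12 were lower and 1 higher, with a median of -0.24. Pygl, a glycogen phosphorylase, fell 1.62-fold and Gbe1, the glycogen branching enzyme, 1.49-fold, while Pck2, the mitochondrial PEP carboxykinase and a target of ATF4, rose 1.63-fold from 119 ± 17.1 to 194 ± 25.3 CPM.

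Among 13 regulators of glycolytic transcription, 5 were lower and 2 higher, with a median of -0.09. The genes that rose were Hif1a, encoding the oxygen-regulated subunit of HIF-1, and Myc. Hif1a was at 237 ± 6.22 CPM (SD, n = 4) without and 299 ± 2.16 CPM with drug (edgeR adjusted p = 2.57e-05) and Myc at 316 ± 46.3 and 455 ± 39.5 CPM (adjusted p = 0.000852). Both are regulated at the protein level too, which was not measured. Epas1, encoding HIF-2α, fell 2.22-fold from 4.32 to 1.95 CPM, and Vhl, which marks HIF subunits for degradation, fell 1.37-fold (adjusted p = 9.39e-05). Of 19 HIF-1 targets outside glycolysis, 13 were lower and 2 higher, and the median was -0.45 on the log2 scale. This list was put together with earlier results of these data known. Its largest falls were those of Ankrd37 (1.95-fold), Selenbp1 (1.81-fold), Bnip3 (1.78-fold), which drives mitophagy, and Ndrg1 (1.77-fold). The part of any of these genes in the falls of the glycolytic genes was not tested.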

How the data were processed

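Counts of reads per Ensembl gene were deposited by the authors for 4 control and 4 treated libraries, as whole numbers that are not normalized. Per the submitters' processing notes, STAR, featureCounts, DESeq2 and deepTools were used with the build GRCm38, without versions. The annotation release, the use of strand in counting and the handling of reads with several matches are not given in the sources used here. Symbols, coordinates and exon lengths came from GENCODE M21 (GRCm38) for 53274 of 53465 IDs, and the other 191 held 0.034% of counts.

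Genes were tested with edgeR 4.0.16 in R 4.3.3. Low genes were removed by filterByExpr, libraries were scaled by TMM and the quasi-likelihood test was used, with treatment alone in the model,; genes were called at an adjusted p under 0.05. SEs came from the F statistic, and 95% intervals used its degrees of freedom. Intervals of isoenzyme ratios used the pooled SD of both groups. Copies were sought with minimap2. On simulated counts of 14443 genes the test recovered 90.8% of genes changed 2-fold and 56.6% of genes changed 1.3-fold, and 7.05% of its calls were false, above the nominal share.

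Replicate numbers recur in both groups. Deviations from the group means correlated between same-numbered libraries at 0.384, 0.145, 0.106 and 0.264 over the tested genes, all above 0.1, which meets the rule used here for a shared number, although the labels do not say that numbers pair the libraries. Under a looser filter number 3 gave 0.0779. The main tests, with their calls, are unpaired, and a model that blocks on the number is an alternative. Since cultures were divided at 72 h, same-numbered libraries may share a culture. If they do, the unpaired calls, the remarks on overlap and the intervals of isoenzyme ratios leave that pairing out.

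Replicates differed by more than sampling noise (chi-square per degree of freedom 3.08 to 24.2). Alternatives were other scalings, no filter, DESeq2 1.42.0, limma-voom 3.58.1, the block and each library left out. The members, the gene lists and the motifs were chosen with earlier results of these data known. All 31 members are named, and of each other list at most 4 called genes by size of change. Hif1a, the markers and the genes at 0 counts fall outside that rule and were named after their values were seen. A called gene of the other lists is not reported here.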

Additional observations from a re-analysis of the deposited data

Results flagged for a closer look

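A library stood far from the other 3 of its group for 7 of 96 groups of values examined, where chance alone flags about 1 in 20. In treated replicate 4, the lowest values were those of Pkm at 2224 CPM, against 2837 to 2866 CPM in the other treated libraries, of Tpi1 at 839.5 CPM against 1124 to 1180.2 CPM, and of Pfkl at 219.8 CPM against 278 to 289.5 CPM. The summed level of the 20 enzyme genes was 13592 CPM there and 16491 to 16981 CPM in the other treated libraries. In control replicate 4, Eno1 was lowest at 2441 CPM, against 2730.4 to 2749 CPM, and Slc2a1 was lowest at 316 CPM, against 351 to 355 CPM. Hk2 was highest in control replicate 3, at 144 CPM against 136 to 137 CPM.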

How the results depend on the processing

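The count of members called lower was 24 with size factors of the RLE kind, upper-quartile scaling, plain library totals, DESeq2 and limma-voom, 25 with the replicate block and 23 with no filter for low genes. It lay between 19 and 24 with each library left out, lowest without control replicate 2 or 3. The count called higher was 2 in those fits except 4 with the replicate block and 2 to 3 with a library left out. All 24 were called under each scaling, and 27 members lay below 0 in every fit. The median log2 fold change of all genes moved from 0.01 to at most 0.03 under a scaling. Over all genes 2617 were lower and 2694 higher, and the block moved neither count by more than 1.5 times. The block changed the call of Pfkfb2, Eno2 and Mpc2 and of no other member. For isoenzyme ratios, 0 of 16 pairs passed in the main test, with 0.5 CPM added and with each library left out. In these tests a separated pair could not pass on its own, so the counts of 0 do not show equal change. With the replicate block (sign flips over 4 pairs) 0 pairs passed, and that design is too small for any pair to pass. The summed level of the 20 enzyme genes in treated over control libraries was 0.739, and 0.723 to 0.776 with a library left out. Precision was lowest for Eno2 (SE 0.19) and next for Slc2a3 and Pfkfb4 (SE 0.13 each).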
